A study of Mus musculus with 4 samples.

Results

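The genes described here are 46 ribosome biogenesis factors of the nucleolus, taken by gene symbol from the 23420 rows of each count file. All 46 were present and all 46 were among the 12610 genes that passed the filter on low counts. Both groups come from 1 mouse cell line of large pre-B cells without the transcription factors Irf4 and Irf8 (Irf4/8-/-). Such cells are cycling precursors with a pre-B cell receptor on their surface, and the line was kept with interleukin 7 on OP9, a stromal feeder line. The tested cells carried a retrovirus with a GFP reporter and a short hairpin RNA against Myb (shMyb), and the control cells carried a hairpin against luciferase (shLuc). GFP-positive cells were sorted 72 hours after transduction, with interleukin 7 at 10 ng/ml, for RNA sequencing, and each group had 2 libraries from duplicate sets of 12 wells of the same line. P-values therefore measure the spread between duplicate transductions of 1 line.

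Ribosomes are built in the nucleolus. There RNA polymerase I transcribes a long precursor RNA, small nucleolar ribonucleoproteins (snoRNPs) guide its chemical modification, and assembly factors fold and cut it while ribosomal proteins bind. The small subunit processome shapes the small subunit, a separate set of factors including the PeBoW complex shapes the large one, and late factors accompany both out of the nucleus. Dividing lymphoid precursors need many new ribosomes, and genes of this pathway are known targets of the growth regulator MYC.

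The hairpin's target did not go down. Myb had 617 and 639 CPM (read counts scaled by the TMM-adjusted size of the library) in the libraries labelled shMyb, against 616 and 600 CPM in the shLuc libraries. The difference was 0.05 on the log2 scale with an SE of 0.04 and a 95% interval from -0.03 to 0.12 (adjusted p = 0.283 in edgeR). With library totals as the only scaling it was called higher, at 0.11. Directions below therefore refer to how the libraries are labelled, not to a measured loss of Myb RNA. Libraries held between 36573743 and 44682954 counts, and the member with the fewest reads had 1553 counts in a library. All 14 pre-B cell markers on the list used were detected and passed the low-count filter, of which 6 were called lower in shMyb and 5 higher. Cd79a, a chain of the receptor complex, had 1057 and 1037 CPM in shMyb and 889 and 907 CPM in shLuc. Dntt, the polymerase that adds bases at joins of antigen receptor genes, had 684 and 681 CPM in shMyb, against 1249 and 1289 CPM in shLuc.

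All 46 genes were lower in the libraries labelled shMyb. Every one was called lower by edgeR's quasi-likelihood test at a Benjamini-Hochberg adjusted p below 0.05 over all tested genes, and none was called higher. Of all tested genes 31.7% were called lower, 30.6% higher and 62.2% in either direction. With library totals as the only scaling the balance differed, with 3102 genes called lower and 4667 higher, and 44 of the 46 members were called lower. In all 46 genes both shMyb libraries lay under both shLuc libraries, which 41.2% of tested genes did. The median log2 fold change of the 46 was -0.32, against 0.005 over all tested genes, and it corresponds to a change of -19.7%. Single genes ran from -0.56 for Bysl to -0.10 for Noc3l, with standard errors from 0.04 to 0.05. The changes were small, and the SD between duplicates had a median of 1.56% of the mean. That spread covers duplicates of the same line and not the choice of scaling. Tested against a 1.2-fold change in place of no change, 16 of the 46 were called lower, where 10.0% of all tested genes were.

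**Figure D1:**
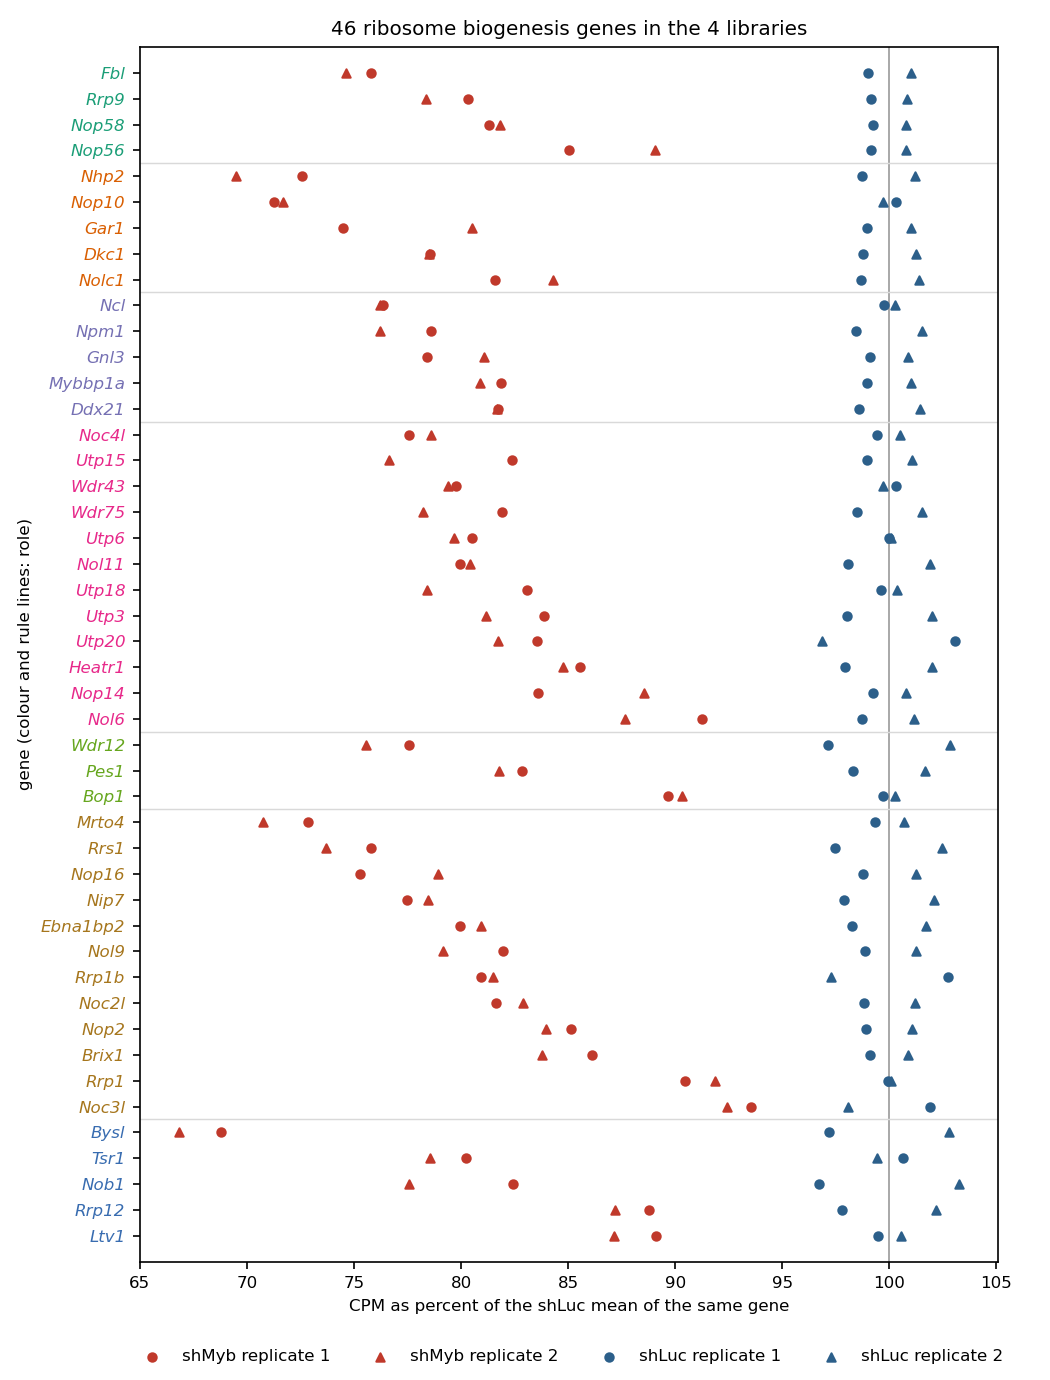
CPM of each of the 46 genes in each library as a percent of the shLuc mean of the same gene (x axis), with genes in rows grouped by role; red points are shMyb libraries and blue points shLuc libraries, with circles for replicate 1 and triangles for replicate 2. In every row both red points lie left of both blue points, and the gap between group means is widest for Bysl and narrowest for Noc3l.

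As a group the 46 genes took up 0.988% and 0.990% of all counts in the shMyb libraries, against 1.183% and 1.196% in the shLuc libraries. This share does not use TMM scaling. The log2 ratio of the mean shares was -0.27. It stayed lower in shMyb with the cytosolic ribosomal protein genes taken out of the total, where the shares were 1.05% and 1.06% in shMyb and 1.28% and 1.29% in shLuc. In bulk RNA, fewer cells of a kind and less RNA per cell cannot be told apart.

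Marker sums differed between the same libraries. The 14 pre-B cell markers summed to 6558 and 6441 CPM in shMyb and 7122 and 7275 CPM in shLuc, lower in both shMyb libraries. The summed level of 16 stromal and fibroblast markers was 60.7 and 68.6 CPM in shMyb and 92.7 and 74.5 CPM in shLuc. Single markers of this list moved both ways, and of the 14 tested 5 were called lower and 2 higher. Fn1 had 6.953 and 7.401 CPM in shMyb, against 22.67 and 18.57 CPM in shLuc. Col3a1 lay higher in shMyb, at 9.494 and 10.97 CPM, against 6.106 and 2.662 CPM in shLuc. Lum was at 0 in 3 libraries. The summed level of 13 myeloid markers was 10.5 and 12.7 CPM in shMyb and 6.68 and 5.28 CPM in shLuc, with Elane, Cebpe and Ctsg at 0 in all 4 libraries. Of the 8 myeloid markers tested, 5 were called higher and none lower. Of all tested genes 31.7% were called lower and 30.6% higher. The highest value of a myeloid marker in any library was 3.30 CPM (Itgam, shMyb replicate 2). Tested genes under 10 CPM had a median log2 fold change of 0.306. Csf1r went the other way, at 1.03 and 0.825 CPM in shMyb and 1.18 and 1.26 CPM in shLuc. For 11 T and NK cell markers the sum was 122 and 115 CPM in shMyb and 101 and 103 CPM in shLuc, nearly all of it Lck, and Cd4, Cd8a, Cd8b1 and Ncr1 were at 0. Erythroid markers summed to at most 0.612 CPM in any library. The part of these markers' cells, or of a shift among the pre-B cells, in the difference was not tested.

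The box H/ACA snoRNPs convert uridine to pseudouridine at sites chosen by a guide RNA, and all 5 genes of this group fell (median log2 fold change -0.37, or -0.31 with GC content and length corrected for). Nhp2, a core protein that binds the RNA (chromosome 11, 51619735 to 51623714, plus strand), had 107 and 103 CPM in shMyb, against 146 and 150 CPM in shLuc. Its log2 fold change was -0.49 (SE 0.04, adjusted p = 4.0e-11). Nop10, the smallest core protein, had 63.2 and 63.6 CPM in shMyb and 89.0 and 88.5 CPM in shLuc, a log2 fold change of -0.48. Only Bysl had a lower value than this pair among the 46 genes, and Nop10 stood at -0.31 when GC content and length were corrected for. Dkc1, the pseudouridine synthase of the particle, averaged 205 ± 0.0665 CPM in shMyb and 261 ± 4.53 CPM in shLuc (SD, n = 2 each), a change of -0.35. Gar1, which helps the enzyme release its substrate, changed by -0.37, and Nolc1, a chaperone of snoRNPs in the nucleolus, by -0.27.

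The box C/D particles add methyl groups to ribose. The 4 genes of this group had a median log2 fold change of -0.314, or -0.365 with GC content and length corrected for. Fbl, the methyltransferase of the particle, had 159 and 156 CPM in shMyb and 207 and 211 CPM in shLuc, with a log2 fold change of -0.41 (SE 0.04, adjusted p = 5.0e-10). The scaffold protein genes Nop58 and Nop56 changed by -0.29 and -0.20. Nop56 had 296 and 310 CPM in shMyb, against 345 and 351 CPM in shLuc. Rrp9, a protein of the U3 particle that belongs to the small subunit processome, changed by -0.33.

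Nucleolar proteins with several functions were the most abundant members. Ncl (nucleolin, an RNA-binding protein that also acts in polymerase I transcription) had 2164 and 2161 CPM in shMyb, against 2828 and 2843 CPM in shLuc. Npm1 (nucleophosmin, a histone and ribosome chaperone) had 1726 and 1674 CPM in shMyb and 2162 and 2230 CPM in shLuc. Their log2 fold changes were -0.39 and -0.37, and in neither gene did the groups overlap. The pair held 41.4% of all reads of the 46 genes in shLuc replicate 1. Exons of all annotated transcripts of a gene, merged, came to 2665 bases for Npm1 and 10188 bases for Ncl. Such a length can exceed that of the main mRNA. Per kilobase of it, Npm1 stood at 638 CPM in shMyb and 824 CPM in shLuc, and Ncl at 212 CPM in shMyb and 278 CPM in shLuc. Gnl3 (nucleostemin, a GTPase of stem and dividing cells) changed by -0.33 and the RNA helicase gene Ddx21 by -0.29. Mybbp1a encodes a nucleolar protein that was found by its binding to the MYB protein and that acts on polymerase I and on processing of the precursor RNA. It had 458 and 452 CPM in shMyb, against 553 and 565 CPM in shLuc, a log2 fold change of -0.30 (SE 0.04, adjusted p = 1.3e-07).

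The small subunit processome is a large assembly on the 5′ part of the precursor RNA. All 12 of its genes among the members fell, with a median log2 fold change of -0.31 and values from -0.36 (Noc4l) to -0.16 (Nol6). Of these genes, Utp15, Wdr43, Wdr75, Utp6, Nol11 and Utp18 spanned -0.33 to -0.31. With GC content and length corrected for, the same genes ran from -0.30 (Utp15) to -0.19 (Utp18). Utp15, Wdr43, Wdr75, Nol11 and Heatr1 belong to the part that binds first and that is also linked to transcription of ribosomal RNA, whereas Utp6 and Utp18 belong to a second part that contacts U3. Utp6 had 95.4 and 94.4 CPM in shMyb and 118 and 119 CPM in shLuc. The scaffold gene Heatr1 changed by -0.23, the giant scaffold gene Utp20 by -0.27 and Utp3 by -0.28. Noc4l had 78.4 and 79.4 CPM in shMyb, against 100 and 102 CPM in shLuc, and Nop14, its binding partner in yeast, changed by -0.22. Nol6, which belongs to another part, had 92.9 and 89.2 CPM in shMyb and 101 and 103 CPM in shLuc, a change of -0.16 with an adjusted p of 8.9e-04 in edgeR, and of -0.33 with GC content and length corrected for.

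**Figure D2:**
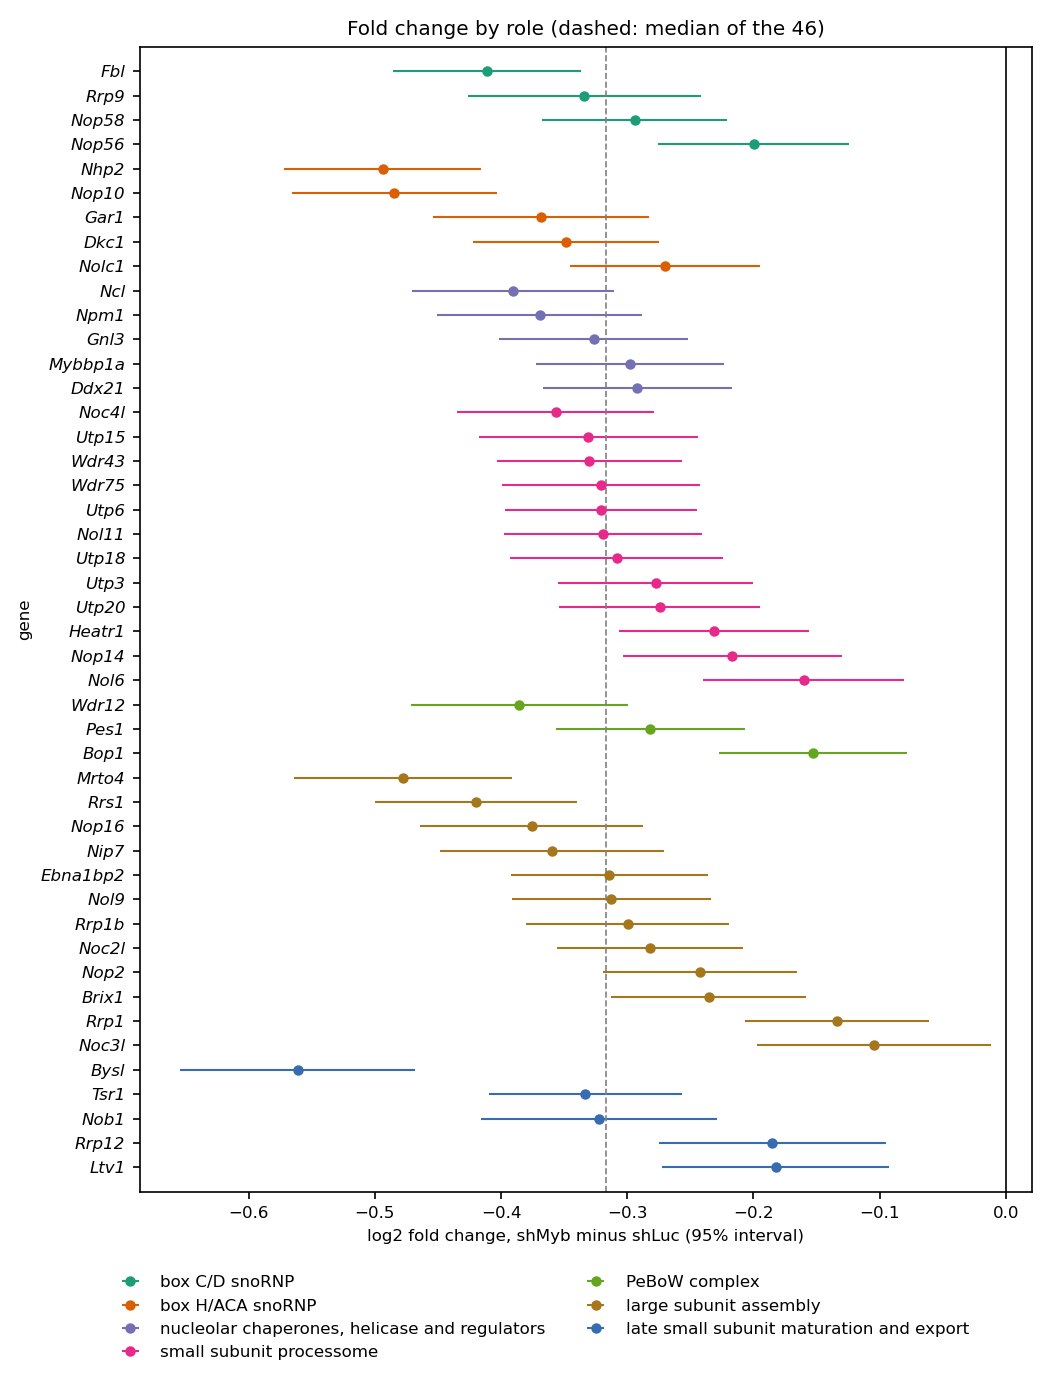
Log2 fold change (shMyb minus shLuc, x axis) of each of the 46 genes with its 95% interval from the edgeR fit, coloured by role; the dashed line is the median of the 46. All intervals lie below 0; those of 6 genes lie wholly below the median and those of 10 genes wholly above it.

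The PeBoW complex joins Pes1, Bop1 and Wdr12 for processing of large subunit RNA, and all 3 of its genes fell. Wdr12 had 64.9 and 63.2 CPM in shMyb and 81.2 and 86.0 CPM in shLuc, a log2 fold change of -0.39 (95% interval -0.47 to -0.30). Pes1 changed by -0.28. Bop1 had 132 and 133 CPM in shMyb and 146 and 147 CPM in shLuc, a change of -0.15 (95% interval -0.23 to -0.08). The intervals of Wdr12 and Bop1 do not meet, but with GC content and length corrected for the values were closer, at -0.40 for Wdr12 and -0.26 for Bop1. Pes1 stood at -0.23 after that correction, so Pes1 and Bop1 changed their order. The ratio of Wdr12 to Bop1 reads within a library, which needs no scaling between libraries, was 0.493 and 0.476 in shMyb and 0.555 and 0.584 in shLuc.

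All 12 large subunit assembly factors fell, with a median log2 fold change of -0.31 and values from -0.48 to -0.10. Mrto4, a relative of a ribosomal stalk protein that occupies its place in the precursor and has 2 annotated pseudogenes, had 53.5 and 52.0 CPM in shMyb, against 73.0 and 73.9 CPM in shLuc. Its log2 fold change was -0.48 (SE 0.04, adjusted p = 5.2e-10). Rrs1, which brings in the ribosomal proteins that bind the 5S RNA, had 95.3 and 92.7 CPM in shMyb and 123 and 129 CPM in shLuc, a change of -0.42. Nop16 (-0.38), Nip7 (-0.36) and Ebna1bp2 (-0.31) are further assembly factors. Nol9, a polynucleotide kinase that acts on the spacer between the large subunit RNAs, changed by -0.31. Noc2l changed by -0.28, the RNA methyltransferase gene Nop2 by -0.24 and Brix1, a factor of early precursors, by -0.24.

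At the other end of that group were Rrp1 and Noc3l. Rrp1 had 265 and 270 CPM in shMyb, against 293 and 294 CPM in shLuc, a log2 fold change of -0.13 (adjusted p = 0.00216 in edgeR). Its paralog Rrp1b changed by -0.30, and the ratio of Rrp1b to Rrp1 reads was 0.334 and 0.331 in shMyb and 0.384 and 0.363 in shLuc. Noc3l, which pairs with Noc2l in the yeast pathway, had 45.8 and 45.3 CPM in shMyb and 49.9 and 48.0 CPM in shLuc. Its change of -0.10 was the closest of the 46 to the threshold (edgeR adjusted p = 0.0475), and the call ended under 13 alternatives besides the 1.2-fold test, among them leaving out either shMyb replicate or shLuc replicate 1. The ratio of Noc3l to Noc2l reads was 0.172 and 0.167 in shMyb and 0.155 and 0.145 in shLuc. The Rrp1 call ended with library totals alone (-0.07) and when the trend of fold change with level was removed (-0.06).

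Late small subunit factors held the largest fall of the 46 and also some of the smallest. Bysl, a factor of late nucleolar and nuclear steps (chromosome 17, 47599331 to 47611492, minus strand), had 44.8 and 43.5 CPM in shMyb, against 63.3 and 67.0 CPM in shLuc. Its log2 fold change was -0.56 (SE 0.05, adjusted p = 9.7e-11). An exon of Bysl overlaps the cyclin D3 gene Ccnd3 on the opposite strand, and Ccnd3 itself was far more abundant and lower, at 1238 and 1188 CPM in shMyb and 1564 and 1623 CPM in shLuc. The strand setting of the counting is not given in the sources used here, so reads from both genes may not be separated. The ratio of Bysl to Ccnd3 reads was 0.0362 and 0.0366 in shMyb and 0.0405 and 0.0413 in shLuc, and the part of Ccnd3 reads in the Bysl value was not tested. Tsr1, a GTPase-like factor of late particles, changed by -0.33 and Nob1, the endonuclease that makes the mature end of the small subunit RNA, by -0.32. Rrp12, an export factor, changed by -0.19, and by -0.30 with GC content and length corrected for. Ltv1, an export factor as well, had 49.4 and 48.3 CPM in shMyb and 55.2 and 55.8 CPM in shLuc, a change of -0.18. That call ended when GC content and transcript length were corrected for, at -0.04 (adjusted p = 0.405).

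Other members also share exon bases with a gene on the opposite strand, 17 of the 46 in all by the annotation. Nhp2 overlaps Rmnd5b, which had 99.0 and 97.0 CPM in shMyb and 94.0 and 92.7 CPM in shLuc. Dkc1 overlaps Mpp1, with 203 and 199 CPM in shMyb and 198 and 203 CPM in shLuc. Neither neighbour was called in either direction, at 0.07 and 0.01 on the log2 scale. Bop1 overlaps Mroh1, which had 47.6 and 47.3 CPM in shMyb, against 33.8 and 33.1 CPM in shLuc, and Nop56 overlaps Idh3b, whose log2 fold change was -0.07. What these neighbours contribute to the values was not tested.

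Read ratios between members of related function overlapped between the groups for some pairs and not for others. In reads per library, Nop56 to Fbl stood at 1.87 and 1.99 in shMyb and 1.67 and 1.66 in shLuc, and Nhp2 to Dkc1 at 0.524 and 0.502 in shMyb and 0.567 in both shLuc libraries. Neither of these ratios overlapped between the groups. Among single tested genes the groups did not overlap in 41.2% with shMyb lower and in 41.0% with shMyb higher. No such share was taken for ratios. Gar1 to Dkc1 did overlap, at 0.354 and 0.383 in shMyb and 0.374 and 0.372 in shLuc, and so did Npm1 to Ncl, at 0.798 and 0.775 in shMyb and 0.765 and 0.785 in shLuc. With 2 libraries a group no exact permutation test of such a ratio can pass 0.05, and these pairs were chosen after the values were seen.

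**Figure D3:**
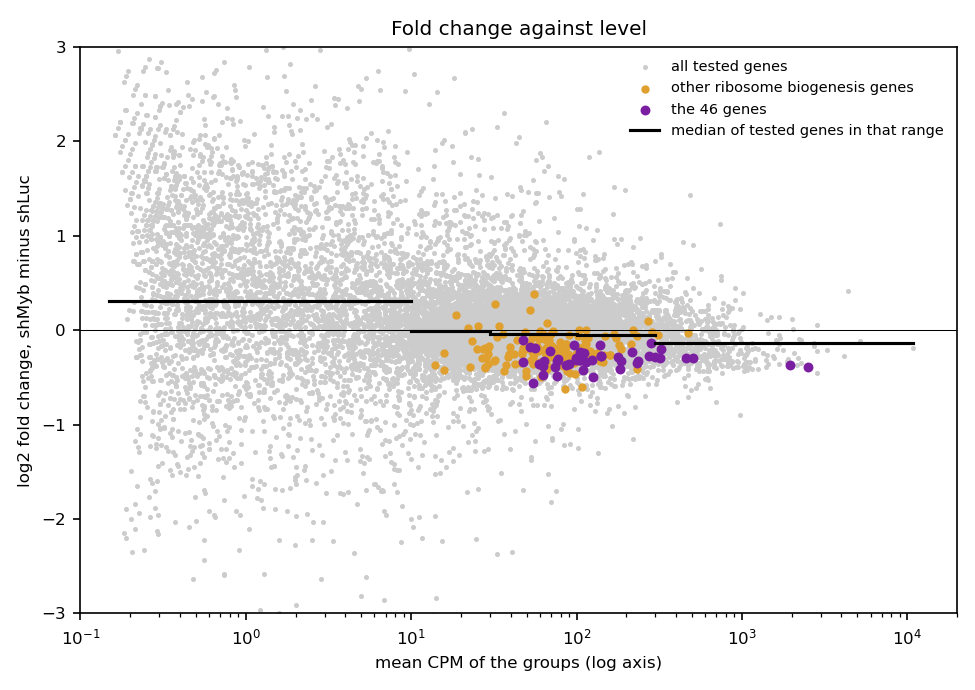
Mean CPM (x axis, log scale) against log2 fold change (y axis, shMyb minus shLuc) for all tested genes in grey, other ribosome biogenesis genes in orange and the 46 genes in purple; black bars are medians of all tested genes within a range of levels, and 32 genes beyond ±3 are not drawn. The purple points lie under the black bars across their whole range of levels.

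Abundant genes had lower fold changes in these libraries in general, and the 46 genes are abundant. Their median level was 95.5 CPM in shMyb and 119.5 CPM in shLuc, and per kilobase of merged exons 18 of the 46 stood over the 90th percentile of tested genes. Of the tested genes between 30 and 100 CPM the median log2 fold change was -0.04 and 40.1% were called lower, while the 19 members in that range had a median of -0.33. Between 100 and 300 CPM the median was -0.05 over all tested genes, with 44.3% called lower, and -0.31 over 21 members. At 300 CPM and over it was -0.13 over all tested genes, with 57.5% called lower, and -0.30 over 6 members. With the trend of fold change on level removed, 44 of the 46 were still called lower at a median of -0.27, and the values of Ncl and Npm1 were then -0.22 and -0.21. Corrected for GC content and length, 44 were called lower at a median of -0.29. That correction moved members both ways. Brix1 stood at -0.09 after it, Nop14 at -0.12, Utp3 at -0.18, Utp18 at -0.19, Npm1 at -0.23 and Nip7 at -0.24, all closer to 0. Further from 0 were Rrp9 at -0.45, Mybbp1a, Rrp1b and Nol9 at -0.41 each, and Rrp1 at -0.22. Across the 46 genes, fold change and log2 level had a correlation of 0.01, given as a description over genes that share the same 4 libraries.

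**Figure D4:**
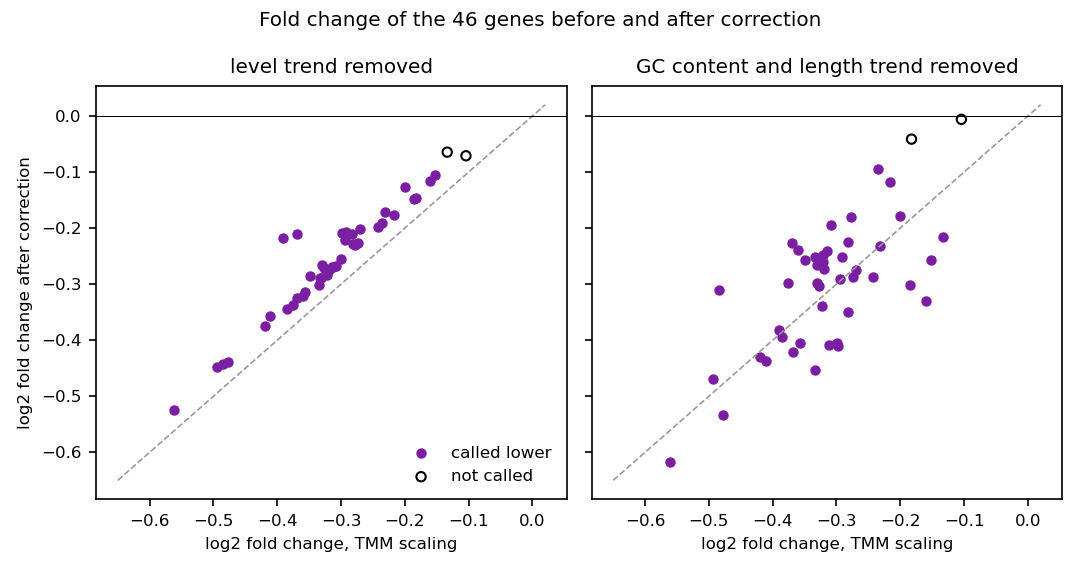
Log2 fold change of the 46 genes with TMM scaling (x axis) against the value after removal of the level trend (left) or of the GC content and length trend (right); open circles were no longer called and the dashed line marks equal values. The level correction moved every gene towards 0, and Rrp1 and Noc3l lost their call; on the right Ltv1 and Noc3l did.

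Of 146 ribosome biogenesis genes outside the 46, all tested, 110 were called lower (75.3%), 5 higher (3.4%) and 31 not called. Over all tested genes the shares were 31.7% lower and 30.6% higher. The median log2 fold change of the 146 genes was -0.23. Their median level was 65.7 CPM in shMyb and 74.4 CPM in shLuc, under that of the 46, and no difference between these genes and the 46 was tested. The lowest class median, -0.31, was that of snoRNP assembly, where 9 of 12 genes were lower. Snu13, listed as Nhp2l1, the protein that binds the kink of box C/D RNAs, had 88.9 and 83.2 CPM in shMyb, against 128 and 133 CPM in shLuc, a log2 fold change of -0.60. The assembly factor Znhit3 changed by -0.42, while Zcchc7, a zinc knuckle protein of nuclear RNA decay, was called higher at 0.22 on wide duplicates (53.6 and 59.3 CPM in shMyb, 52.1 and 45.1 CPM in shLuc).

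Of 42 other large subunit factors 34 were lower. Npm3, a nucleoplasmin relative of Npm1, had 67.3 and 67.7 CPM in shMyb and 101 and 107 CPM in shLuc, a log2 fold change of -0.62 that exceeds the fall of any of the 46. Nifk, listed as Mki67ip, changed by -0.45. Nop53, listed as Gltscr2, was called higher at 0.10 (edgeR adjusted p = 0.0333). Of 41 other small subunit processome genes 32 were lower and none higher, among them Utp11 (listed as Utp11l, -0.48) and Utp4 (listed as Cirh1a, -0.43). In the class listed as late small subunit maturation 3 of 7 (42.9%) were lower, near the 40.1% of all tested genes between 30 and 100 CPM. Pno1, the partner of Nob1, stood at -0.49. Cinp, placed in this class only by the list used, stood at -0.31.

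The exosome, which trims precursor ends, had 15 of 16 genes lower (median -0.26), with its core genes Exosc5 at -0.41 and Exosc4 at -0.39. Of 12 genes for export and cytoplasmic steps of the large subunit 7 were lower, Zfp593 (-0.39) and Spata5 (-0.37) first among them, and Sbds, Lsg1 and Xpo1 were not called. Of 16 genes of the polymerase I machinery 10 were lower and 3 higher, at a median of -0.16. Polr1b, the second largest subunit, had 84.3 and 80.9 CPM in shMyb and 113 and 114 CPM in shLuc, and the initiation factor gene Rrn3 changed by -0.35. Ttf1, the termination factor of ribosomal RNA genes, had 60.1 and 64.9 CPM in shMyb, against 46.5 and 49.5 CPM in shLuc, a log2 fold change of 0.38. The subunit gene Znrd1 was higher as well, at 0.28, and so was Taf1a at 0.16.

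**Figure D5:**
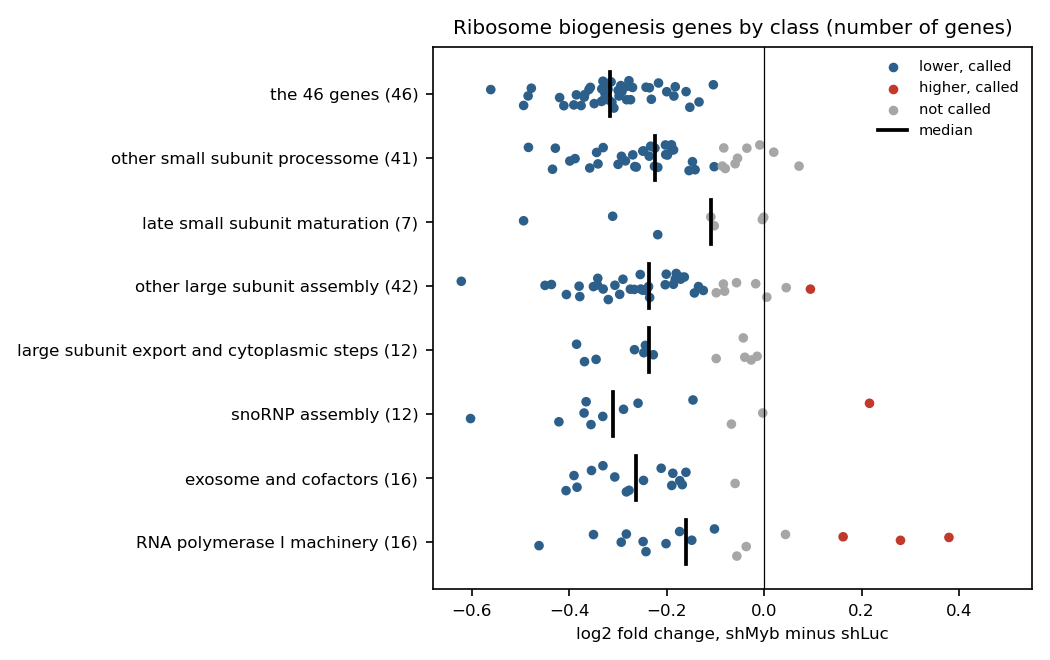
Log2 fold change (x axis, shMyb minus shLuc) of the 46 genes (top row) and of 146 other ribosome biogenesis genes by class, with the number of genes in brackets; blue points were called lower, red points higher and grey points not called, and black bars are medians. The top row is all blue, and the lowest row holds 3 red points.

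The promoters of the 46 genes were searched because the genes moved together. Sequences from 250 bases before to 50 bases after the RefSeq start (GRCm38.p6) were matched by symbol for 39 of the 46. Where a gene had several promoters, only the first listed was searched. The E-box CACGTG, which reads the same on both strands and is bound by MYC and related factors, was found in 9 of the 39 promoters (23.1%). Of the other ribosome biogenesis genes, 21 of 121 promoters (17.4%) had it as well. It was in 10.4% of the promoters of tested genes matched by symbol and in 7.24% of all genes with a promoter sequence. No difference between these shares was tested. The letters CAACTG or TAACTG, a form of the MYB recognition sequence, were searched on both strands and found in 6 of 39 promoters (15.4%), against 1492 of 9326 promoters of tested genes. The 9 genes with an E-box were Ltv1, Mybbp1a, Nol11, Nop2, Pes1, Tsr1, Utp18, Utp20 and Wdr43. Their median log2 fold change was -0.30, against -0.32 for the 30 without it. A match is a description of the letters and not of a bound site.

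Shown first are the 120 bases before the start of the 3 genes whose E-box lies upstream of the start, in capitals. Nop2 (chr6:125131763-125131882, plus strand) has it 60 bases before the start, Nol11 (chr11:107189382-107189501, minus strand) 43 bases and Utp18 (chr11:93885767-93885886, minus strand) 20 bases, counted to its first base. Nhp2 (chr11:51619653-51619772, plus strand) and Nop10 (chr2:112261806-112261925, plus strand), whose log2 fold changes were -0.49 and -0.48, have no E-box in the window and stand below for comparison. RefSeq starts can differ from the gene bounds given above, which are those of GENCODE M21 on GRCm38.
Nop2: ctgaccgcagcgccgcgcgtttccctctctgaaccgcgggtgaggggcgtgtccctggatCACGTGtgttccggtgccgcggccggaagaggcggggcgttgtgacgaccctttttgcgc
Nol11: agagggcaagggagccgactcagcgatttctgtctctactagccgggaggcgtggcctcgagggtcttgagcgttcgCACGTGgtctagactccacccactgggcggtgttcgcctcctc
Utp18: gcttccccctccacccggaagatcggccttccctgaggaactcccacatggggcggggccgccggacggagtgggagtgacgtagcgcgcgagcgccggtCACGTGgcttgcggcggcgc
Nhp2: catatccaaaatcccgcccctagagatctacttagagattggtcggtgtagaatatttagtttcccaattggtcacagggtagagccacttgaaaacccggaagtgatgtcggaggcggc
Nop10: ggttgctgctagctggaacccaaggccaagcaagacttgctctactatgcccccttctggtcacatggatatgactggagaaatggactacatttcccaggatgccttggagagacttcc

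Some of the members also host small nucleolar RNA genes. Nop56, Nop58, Dkc1, Ncl, Gnl3, Wdr43 and Tsr1 carry at least 1 annotated snoRNA gene within their bounds on the same strand. That is 7 of 46 genes (15.2%), against 2.74% of the 146 other ribosome biogenesis genes and 2.01% of annotated tested genes. The log2 fold changes of the 7 hosts ran from -0.39 to -0.20 with a median of -0.33, and those of the other 39 members had a median of -0.31. The exon length of the 46 (median 3845 bases) and their GC content (median 49.3%) were near those of all annotated tested genes (4378 bases and 49.8%).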

How the data were processed

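Each deposited file gives 1 library's raw counts of reads by gene symbol. The submitters' processing notes name the tools FastQC, STAR, HTSeq and DESeq2 with build mm10. Not given in the sources used here are versions, annotation and strand setting. The test, across all genes, was that of edgeR 4.0.16 under R 4.3.3 (filterByExpr with a minimum count of 10, TMM, glmQLFit with robust=TRUE, glmQLFTest, group as the only term), after a check on simulated data. P-values were adjusted by Benjamini-Hochberg over 12610 genes and called below 0.05. Standard errors are log2 fold changes over the root of F. CPM use TMM-scaled totals, and 3 counts were worth 0.0689 to 0.0799 CPM. The members, lists and motifs were chosen with earlier results of these data known. All members are named; of each further class, up to 2 called genes with the largest fall and 2 with the largest rise at 10 CPM or more. Taf1a and the genes not called were named after their values were seen. Symbols were matched to GENCODE M21 (GRCm38), 21759 by name and 1255 by an older symbol; coordinates are 1-based. Reads shared with near-identical pseudogenes may have been split by the counting. Alternatives used RLE scaling, library totals, other filters, DESeq2 1.42.0, limma-voom (limma 3.58.1), a replicate block, trend corrections and fewer libraries.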

Additional observations from a re-analysis of the deposited data

How the results depend on the processing

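With 18 alternatives per gene, 1 of them chosen after seeing the data, no member changed direction, 780 of the 828 results stayed on the same side of the threshold, and 42 of the 46 genes lost their call nowhere except in the test against a 1.2-fold change. The exceptions were Noc3l, Rrp1, Ltv1 and Bop1, the last only with the trend correction and replicate block together (adjusted p = 0.051). That fold test left 16 members lower, and 31 other ribosome biogenesis genes lower with 1 higher. The members' median was -0.25 with library totals, -0.27 with the trend correction and with the trend correction plus replicate block, -0.29 with the GC content and length correction, and -0.35 to -0.30 without single libraries. The median of the 146 other genes was -0.16 with library totals, -0.24 with no low-count filter, -0.19 with either trend correction, and -0.25 to -0.22 without single libraries. Of those genes the 5 called higher became 3 with no filter, with DESeq2 and with the trend correction plus replicate block, 2 at an adjusted p below 0.01, and 3 to 6 without single libraries. Myb was called higher with library totals (0.11), the trend correction (0.15, adjusted p = 9.2e-04) and that correction with the replicate block (0.14). The log2 ratio of the members' share of counts was -0.29 against tested genes without ribosomal proteins. The replicate block gave 45 members lower. Same-numbered libraries deviated with a correlation of -0.195, so the pairing was also crossed, which gave 46 members lower and 120 other genes lower. The cause of these moves was not tested. With 1 library left in a group, that library is assumed to vary like the other group.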
